A study of Mus musculus with 6 samples.

Results

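Endothelial marker genes were followed in cultured mouse bone treated with parathyroid hormone (PTH). They were *Pecam1*, *Emcn*, *Eng*, *Esam*, *Vwf*, *Cldn5*, *Cd34* and *Ramp2*, chosen by name as genes that mark the cells lining blood vessels. Every probe listed under one of these 8 symbols, of 31508 on the array, was taken, which gave 9 of 45281 probes. *Pecam1* had 2 probes, and *Esam* was found under its older symbol *Esam1*. The tissue was the shaft of the tibia and femur of C57BL6 mice, 3 months old by the sample labels. The ends of each bone were cut away, the marrow was flushed, and the surfaces were digested with collagenase and trypsin. The remaining cylinders of cortical bone, called bone tubes, were labelled as osteocytes in cortical bone. After a night in serum-containing medium the tubes were left untreated (control) or were given 250 nM of the active 1-34 fragment of PTH, both for 24 hours. The bones came from 4 to 5 mice per experiment, with about 10 bones in each preparation. RNA from each preparation was put on 1 Illumina bead array for mouse. Whether a control and a PTH preparation shared mice is not stated. There were 3 control and 3 PTH arrays, numbered 1 to 3 in each group. Nothing in the labels says that arrays came from separate pools of mice, so the p-values measure only the spread between these arrays, which may be technical.

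Cortical bone is crossed by capillaries that run in canals within the mineral, and marrow sinusoids lie against its inner surface. Endothelial cells hold to each other through junction proteins such as Pecam1, Esam and Cldn5, coat their inner surface with sialomucins such as Emcn and Cd34, carry receptors such as Eng and Ramp2, and store von Willebrand factor for clotting. Emcn and Pecam1 together mark the capillaries that are coupled to bone formation. Bone cells answer PTH mainly through a receptor that raises cyclic AMP.

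Signals are given below on a log2 scale after background correction and quantile normalization, which forces the same distribution of signals on every array. A probe was above background on an array when its detection p-value was under 0.05. It was called changed when limma's moderated test, adjusted over the 16214 probes that were tested, gave a p under 0.05 and the change was at least 1.5-fold. The median deposited signal ranged from 111 to 129 over the 6 arrays, and 34.2% to 38.4% of probes were above background. Of 11978 genes tested, 207 were called, 1.73%, of which 39.6% were higher with PTH. With median scaling in place of quantile normalization 104 genes were called, 60.6% of them higher, and the median log2 change of all genes moved from 0.0053 to 0.12. The number of arrays limits the precision: a value with 3 arrays a group carries a 95% interval that spanned, in the median probe, 0.38 log2 units on either side.

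ETS factors are a family that includes the endothelial regulators Erg and Fli1, and their binding sites share the core GGAA. RefSeq promoter sequences (build GRCm38.p6, 250 bases before to 50 bases after the start) matched 4 of the 8 genes, *Emcn*, *Eng*, *Cldn5* and *Cd34*. The other 4 are *Pecam1*, *Esam*, *Vwf* and *Ramp2*. 3 of the matched promoters are printed, from the gene with the most ETS cores to the gene with none, so that the contrast can be read. The sequences run 5′ to 3′ along the gene's strand, and capitals mark the core GGAA or its reverse complement TTCC.
Emcn, chr3:137340828-137341127, plus strand: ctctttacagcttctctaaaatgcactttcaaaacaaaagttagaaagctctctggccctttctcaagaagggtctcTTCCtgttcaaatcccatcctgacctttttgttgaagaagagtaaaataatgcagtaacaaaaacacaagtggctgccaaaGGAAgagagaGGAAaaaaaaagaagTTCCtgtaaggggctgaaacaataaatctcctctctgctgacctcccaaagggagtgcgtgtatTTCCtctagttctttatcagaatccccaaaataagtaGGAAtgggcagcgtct
Eng, chr2:32646345-32646644, plus strand: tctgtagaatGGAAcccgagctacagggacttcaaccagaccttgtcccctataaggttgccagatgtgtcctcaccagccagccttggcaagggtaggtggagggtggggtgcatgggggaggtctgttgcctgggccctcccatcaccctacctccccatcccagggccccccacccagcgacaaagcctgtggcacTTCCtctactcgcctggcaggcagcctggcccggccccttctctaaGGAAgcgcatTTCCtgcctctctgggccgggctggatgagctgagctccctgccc
Cldn5, chr16:18776597-18776896, plus strand: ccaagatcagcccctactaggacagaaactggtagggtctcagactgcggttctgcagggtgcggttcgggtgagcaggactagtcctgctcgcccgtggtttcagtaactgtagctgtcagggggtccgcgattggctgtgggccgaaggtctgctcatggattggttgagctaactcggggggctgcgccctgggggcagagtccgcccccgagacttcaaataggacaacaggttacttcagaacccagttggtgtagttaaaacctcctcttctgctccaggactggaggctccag

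Searched on both strands, GGAA was found at 6 places in the *Emcn* promoter, 5 in *Cd34*, 4 in *Eng* and none in *Cldn5*. The core is common: 96% of 32851 promoters of this length held it, with a median of 3 places. The longer form AGGAAG, which contains GGAA, stood at 2 places in *Emcn*, 2 in *Eng* and 1 in *Cd34*, and in 35.4% of all promoters. The SOX word ACAAT was found once in *Emcn* and once in *Cd34* and in 31% of all promoters. The GATA word AGATAA, in 11.2% of all promoters, was in none of the 4. The short core of the cyclic AMP response element, TGACG, was in 20.8% of all promoters and in none of the 4. These counts describe letters in a short window and say nothing of which factors were bound.

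By its brightest probe each of the 8 genes was above background on each of the 6 arrays, in control and PTH tubes alike. So was *Cdh5*, the cadherin that defines endothelium and is not among the 8. The mean of its brighter probe was 7.91 in control and 7.63 with PTH (limma adjusted p = 0.585). Its dimmer probe differed by -0.44 (adjusted p = 0.2). The VEGF receptor *Kdr* was dim, above background on 3 control arrays and 1 PTH array, and differed by -0.38 (adjusted p = 0.379). *Flt1*, another VEGF receptor, was above background on all 6 arrays and differed by 0.32 (adjusted p = 0.278). None of the 9 probes was called by limma, where 1.61% of all probes tested were. At an unadjusted p under 0.05 limma picked 1 gene, *Vwf*, of the 8, against 14.9% of all genes, and the same test without shared variances also picked *Vwf* alone. Its change was under 1.5-fold. Of the 8 genes, 4 had a higher mean with PTH and 4 a lower one. Their median log2 change was 0.003, beside 0.0053 for all genes tested. *Vwf* was also the single gene of the 8 whose groups did not overlap. Over all genes tested the share without overlap was 21.9%, and 10.8% with PTH below control, and over all probes it was 20.8% and 10.5%.

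**Figure D1:**
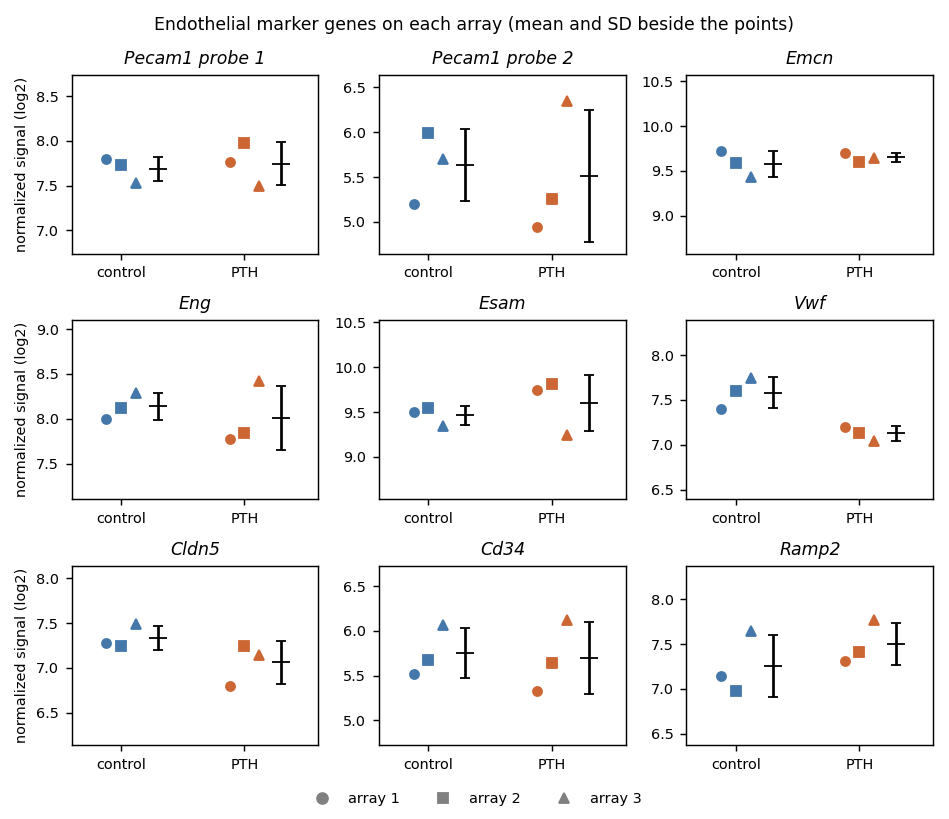
Normalized log2 signal of each of the 9 probes on the 3 control (blue) and 3 PTH (orange) arrays, each panel spanning the same number of log2 units, with the mean and SD (n = 3) beside the points. All 3 PTH arrays lie below all 3 control arrays for *Vwf*, and the groups overlap in the other 8 panels.

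Among the junction genes, *Pecam1* encodes the adhesion molecule CD31, by which endothelial cells are most often stained. Its brighter probe read 7.80, 7.73 and 7.53 on control arrays 1 to 3 and 7.76, 7.98 and 7.50 on PTH arrays 1 to 3. The highest and the lowest of the 6 values were both PTH arrays, so the control values lay within the PTH range. The PTH mean was 1.04-fold the control mean (95% interval 0.807 to 1.35, limma adjusted p = 0.908). The second *Pecam1* probe was dim and scattered, at 5.20, 6.0 and 5.70 in control and 4.94, 5.25 and 6.35 with PTH. On PTH array 1 it was not above background, with a detection p-value of 0.104. The SD of its PTH values was 0.74 (n = 3), and the fold interval ran from 0.512 to 1.65 around 0.92 (adjusted p = 0.92). The 2 probes differed in the sign of their change, 0.06 and -0.12 on the log2 scale, and both intervals spanned 0.

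*Esam* encodes an immunoglobulin-like molecule of endothelial tight junctions that platelets also carry. Its signals were 9.50, 9.55 and 9.34 in control and 9.75, 9.81 and 9.24 with PTH. PTH arrays 1 and 2 were the highest of the 6 and PTH array 3 was the lowest. The fold was 1.10 (0.828 to 1.46, adjusted p = 0.786). *Cldn5*, the main claudin of endothelial tight junctions, read 7.28, 7.25 and 7.49 in control and 6.79, 7.25 and 7.15 with PTH. PTH arrays 1 and 3 lay below every control array, and PTH array 2 lay level with control array 2. The *Cldn5* mean was 7.34 ± 0.13 in control and 7.06 ± 0.24 with PTH (SD, n = 3), a fold of 0.828 (0.643 to 1.07, adjusted p = 0.491).

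Of the sialomucins, *Emcn* encodes endomucin, a marker of venous and capillary endothelium. It read 9.72, 9.59 and 9.43 in control and 9.71, 9.60 and 9.65 with PTH. All 3 PTH values lay inside the control range, with the smallest spread of any member (SD 0.05, n = 3). The fold was 1.05 (0.855 to 1.29, adjusted p = 0.859). *Cd34* encodes a surface mucin of capillary endothelium and of blood progenitors. It read 5.52, 5.67 and 6.06 in control and 5.33, 5.64 and 6.12 with PTH, and in both groups array 3 was the highest and array 1 the lowest. The *Cd34* fold was 0.963 (0.666 to 1.39, adjusted p = 0.944).

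Of the receptors, *Eng* encodes endoglin, a co-receptor for BMP9 and TGF-β that is needed for vessel formation. It read 8.0, 8.12 and 8.29 in control and 7.78, 7.84 and 8.42 with PTH. PTH arrays 1 and 2 lay below every control array and PTH array 3 above every one, so the means, 8.14 ± 0.15 and 8.01 ± 0.36 (SD, n = 3), averaged values on opposite sides. The fold was 0.917 (0.672 to 1.25, adjusted p = 0.83). *Ramp2* encodes a partner that turns the calcitonin receptor-like receptor into a receptor for adrenomedullin. It read 7.14, 6.98 and 7.65 in control and 7.32, 7.41 and 7.77 with PTH. Control array 3 was above PTH arrays 1 and 2, and the other 2 control arrays lay below all PTH arrays. The *Ramp2* fold was 1.18 (0.849 to 1.65, adjusted p = 0.66), the largest positive difference among the 9 probes.

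*Vwf* encodes von Willebrand factor, a clotting protein stored in endothelial cells and also made by megakaryocytes. It read 7.40, 7.60 and 7.74 in control and 7.20, 7.14 and 7.04 with PTH. The groups were apart: the highest PTH value, 7.20, was below the lowest control value, 7.40. The means were 7.58 ± 0.17 and 7.13 ± 0.08 (SD, n = 3), a difference of -0.45 (SE 0.14, 95% interval -0.77 to -0.14) and a fold of 0.731 (0.587 to 0.91). The unadjusted p of 0.0109 became 0.177 after adjustment over all probes, so *Vwf* did not pass. In the deposited signals, before normalization, the groups overlapped: *Vwf* stood at 231, 297 and 307 in control and at 208, 231 and 285 with PTH. A megakaryocyte and platelet list of 12 genes is given beside *Vwf*. Of its 10 genes tested none was called by limma, 5 had an unadjusted p under 0.05, and 4 did by the test without shared variances. All 10 had a lower mean with PTH, where 49.2% of all genes tested did, and the median log2 change of the list was -0.38. Its summed linear signal was 3666 to 3971 on control arrays and 2918 to 2993 on PTH arrays. *Pf4* and *Ppbp*, chemokines of platelet granules, differed by -0.29 (adjusted p = 0.319) and -0.57 (adjusted p = 0.129). The part of these cells in the *Vwf* values was not tested. Fewer cells of a type and less RNA per cell cannot be told apart in bulk bone, here or in any list below.

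The intervals, for quantile-normalized signals, give the range of changes that the spread between these arrays allows. For *Emcn*, *Esam*, *Eng* and the brighter *Pecam1* probe the whole interval lay inside 1.5-fold in either direction. With median scaling the log2 differences of these probes were 0.245, 0.303, 0 and 0.169, and the lowest limma adjusted p of any member was 0.978. The intervals below are again those after quantile normalization. For *Cldn5*, *Cd34* and *Vwf* the interval reached past 1.5-fold on the lower side only, and for *Ramp2* on the higher side only. For the dim *Pecam1* probe it reached past 1.5-fold on both sides. The summed linear signal of the 8 genes was 2371 to 2431 on control arrays and 2365 to 2540 on PTH arrays, and these ranges overlapped.

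The members did not move as one from array to array. In both groups array 3 stood on the same side of its group mean for 8 of the 9 probes, *Vwf* being the exception. On the log2 scale *Cd34* was 0.31 above its group mean on control array 3 and 0.42 above it on PTH array 3. *Ramp2* was 0.39 and 0.27 above, and *Eng* 0.15 and 0.41 above. *Esam* was on the other side, with deviations of -0.12 and -0.36, as was the brighter *Pecam1* probe, with -0.15 and -0.25. Within the PTH group array 3 lay on one side of the mean and arrays 1 and 2 on the other for every probe except those of *Emcn* and *Cldn5*. With 3 values 1 of them always stands against the other 2, so such a split is no result in itself. In the deposited signals PTH array 3 also gave the highest *Emcn* value, 1234, where the other 5 arrays lay between 760 and 897.

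**Figure D2:**
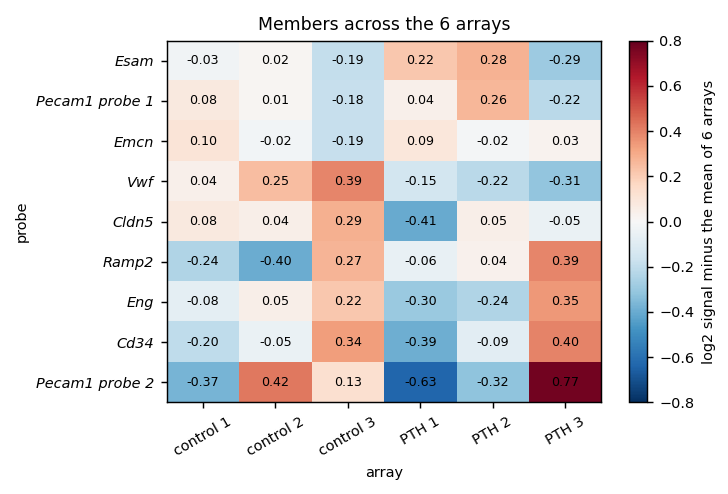
Log2 signal of each probe on each array minus that probe's mean over the 6 arrays, colours and printed values showing the same quantity. On PTH array 3 *Eng* (0.35), *Cd34* (0.40) and *Ramp2* (0.39) are above their means while *Esam* (-0.29) is below, and *Vwf* is positive on control arrays and negative on PTH arrays.

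The genes of Ramp2's partners and ligands were read beside it. *Ramp1*, whose protein turns the same receptor into one for the neuropeptide CGRP, fell with PTH. It read 7.59, 7.60 and 7.12 in control and 6.42, 6.29 and 6.39 with PTH, with a gap between the groups. The difference was -1.07 (95% interval -1.44 to -0.70, limma adjusted p = 0.0221). *Ramp3*, the third member of the family, differed by -0.03 (adjusted p = 0.959). The ligands *Adm*, *Adm2* and *Calca* differed by 0.23, -0.21 and -0.24, with adjusted p-values of 0.748, 0.717 and 0.709. *Calcrl*, the receptor that Ramp2 joins, and the ligand gene *Calcb* were above background on no array, so a Ramp2 receptor pair could not be followed. Of the 5 genes of this list that were tested, 1 was called lower and none higher, where 1.04% of all genes were called lower and 0.685% higher. The *Ramp1* call was lost with median scaling (adjusted p = 0.0704), in the test without shared variances (0.12) and without any one array other than control array 3 (0.0618 to 0.0983). Without control array 3 it held (0.0175). Its difference stayed between -1.23 and -0.98 in the runs with an array left out.

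The partners, ligands and targets of endoglin gave 9 tested genes of 13. None was called by limma, and 2 had an unadjusted p under 0.05 both by limma and by the test without shared variances. *Acvrl1*, the receptor through which endoglin signals in endothelium, was above background on 1 control array and no PTH array, and was not tested. *Bmpr2*, its type II partner, was dim and differed by -0.18 (adjusted p = 0.72). The TGF-β receptors *Tgfbr1* and *Tgfbr2* were bright, and differed by 0.34 (0.04 to 0.64, adjusted p = 0.283) and 0.02 (adjusted p = 0.968). *Id1*, a target of this pathway, differed by -0.20 (adjusted p = 0.521). Of the 19 further genes of claudins and tight junctions only 6 were tested and none was called by limma, with 2 at an unadjusted p under 0.05 by either test. *Cldn12* differed by -0.06 (adjusted p = 0.915) and *Tjp1*, the scaffold protein ZO-1, by 0.50 (adjusted p = 0.123).

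**Figure D3:**
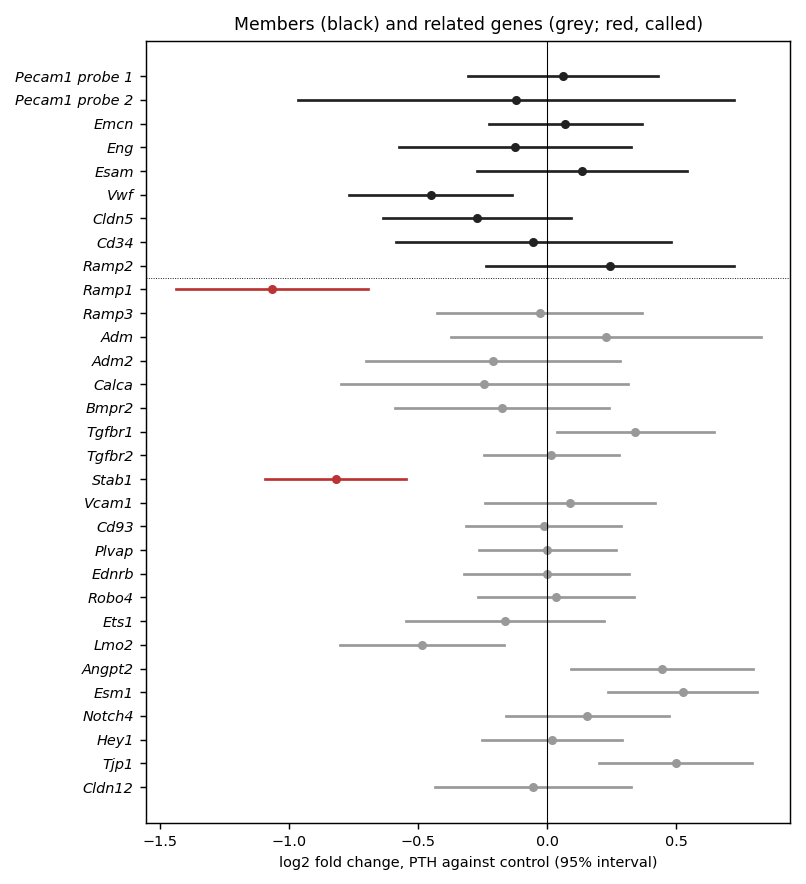
Log2 fold change of PTH against control with its 95% interval for the 9 probes of the marker genes (black) and for related endothelial genes (grey, or red where called). The interval of *Vwf* is the single black one that does not reach 0, and *Ramp1* (-1.07) and *Stab1* (-0.82) are the called genes.

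A wider set of 62 endothelial genes in 6 lists was read beside the members. Of these 61 were on the array and 46 were tested. Above background, 36 were seen on each of the 6 arrays and 11 were seen on none. Those 11 were *Clec14a*, *Flt4*, *S1pr1*, *F8*, *Procr*, *Apln*, *Lyve1*, *Sele*, *Fabp4*, *Cd36* and *Nr2f2*. The mean was higher with PTH for 25 and lower for 21 of the 46 genes, with a median log2 change of 0.025. *Stab1*, a scavenger receptor of sinusoidal endothelium and also of macrophages, was the single gene called. It read 8.71, 8.56 and 8.65 in control and 7.85, 7.75 and 7.86 with PTH, so every PTH array was well below every control array. It fell by 0.82 on the log2 scale (95% interval -1.09 to -0.55, adjusted p = 0.0193). The *Stab1* call was lost with median scaling, where the difference was -0.69 (adjusted p = 0.471). It was also lost when any one of the 6 arrays was left out (0.0524 to 0.0971), with a difference between -0.86 and -0.78. A macrophage list is given beside *Stab1*. Of its 8 tested genes none was called by limma, 4 had an unadjusted p under 0.05, and 5 did by the test without shared variances. All 8 had a lower mean with PTH, where 49.2% of all genes tested did. For 6 of them the groups did not overlap, where 10.8% of all genes had PTH below control without overlap. The summed linear signal of the list was 7628 to 7729 in control and 5951 to 6037 with PTH. *Cd163* was above background on no array. The part of macrophages in the *Stab1* values was not tested.

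None of the other 5 lists held a called gene by limma. The junction and surface list had a median log2 change of -0.14 over 10 tested genes, with 1 at an unadjusted p under 0.05. That gene was *Jam2*, a junction molecule, whose 4 probes were all lower with PTH. They differed by -0.39 to -0.73 (limma adjusted p = 0.0742 to 0.263), and none passed. *Cd93*, a lectin-like surface protein, differed by -0.01 (adjusted p = 0.976) and *Plvap*, which spans the openings of capillary walls, by 0.0001 (adjusted p = 1). The receptor list had a median of -0.19 over 8 genes, with 1 such gene. *Ednrb*, an endothelin receptor, and *Robo4*, a guidance receptor of endothelium, differed by -0.003 and 0.03 (adjusted p = 0.996 and 0.938). The transcription factors had a median of -0.16 over 11 genes, with 3. *Klf2*, a factor induced by blood flow, had the largest difference of the 46 genes, -0.94 (-1.47 to -0.41, adjusted p = 0.108), with no overlap between the groups, and did not pass. *Ets1* differed by -0.16 (adjusted p = 0.719) and *Lmo2* by -0.49 (adjusted p = 0.154), and the ETS factor *Erg* was above background on 1 control array alone and was not tested. The arterial and venous list had a median of 0.09 over 6 genes, with 1. *Notch4* and *Hey1*, of the Notch pathway, differed by 0.16 and 0.02 (adjusted p = 0.671 and 0.967).

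Of the 8 tested genes of the secreted and haemostasis list 7 had a higher mean with PTH, and the median log2 change was 0.24. None was called by limma, and 2 had an unadjusted p under 0.05 by either test. *Esm1*, a proteoglycan of vessel tips, differed by 0.52 (0.24 to 0.81, adjusted p = 0.0984) and *Angpt2*, a ligand that loosens vessels, by 0.44 (0.09 to 0.79, adjusted p = 0.23). For both genes the lowest PTH value was above the highest control value. The groups of the other 6 tested genes of the list overlapped.

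**Figure D4:**
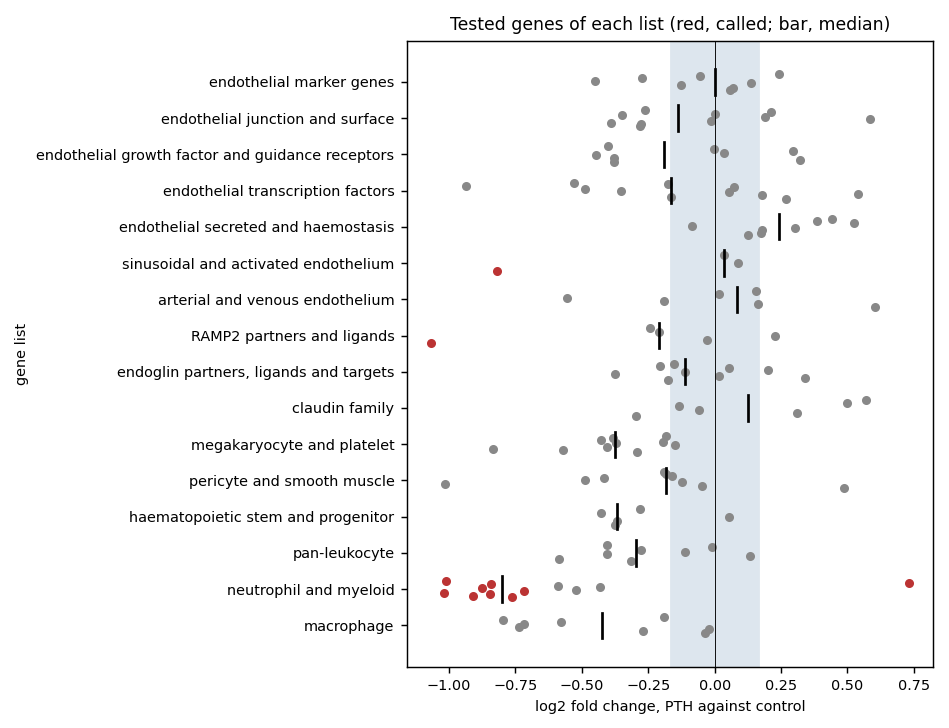
Log2 fold change of every tested gene in the member list, the related endothelial lists and 6 marker lists of other cells, with called genes in red, a black bar at each median, and the range between the quartiles of all genes (-0.16 to 0.17) shaded. The bar of the marker genes lies at 0.003. Below the shaded band lie those of the neutrophil (-0.80), macrophage (-0.42), megakaryocyte (-0.38), progenitor (-0.37) and pan-leukocyte (-0.295) lists. So do those of the RAMP2 (-0.21), endothelial receptor (-0.19) and pericyte (-0.18) lists, and that of the endothelial transcription factors (-0.164) lies at the lower edge. The bar of the endothelial secreted list (0.24) lies above the band.

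Markers of other cells in the same tubes are given as levels beside these results. In the pericyte and smooth muscle list 9 of 12 genes were tested and none was called by limma, with 4 at an unadjusted p under 0.05. Its summed linear signal was 5604 to 6187 in control and 5086 to 5451 with PTH, and *Myh11*, *Cnn1* and *Lmod1* were above background on no array. *Acta2*, *Tagln* and *Pdgfrb* differed by -0.12, -0.49 and -0.05 (adjusted p = 0.698, 0.252 and 0.942). The blood progenitor list, which shares *Cd34* expression with endothelium, had 5 tested genes, none called by limma and 1 at an unadjusted p under 0.05, with a median of -0.37. The pan-leukocyte list had 8 tested genes, none called by limma and 3 at an unadjusted p under 0.05, with a median of -0.29. These counts take each gene's brightest probe, which for *Coro1a* differed by -0.59 (limma adjusted p = 0.0975). All 4 probes of *Coro1a* were lower with PTH, and a dimmer one passed (-0.81, limma adjusted p = 0.0359). In the neutrophil list 8 of 12 tested genes were called lower and 1 higher by limma, where 1.04% and 0.685% of all genes were. The mean was lower with PTH for 11 of the 12. In the red cell list both tested genes were called lower, with a median of -1.93. In the osteocyte list, read beside the tissue label, 9 of 12 genes were above background on all 6 arrays. Its summed linear signal was 57328 to 63065 in control and 48487 to 52142 with PTH. That of the neutrophil list was 60142 to 61312 in control and 41679 to 46756 with PTH, so both lists were about as bright in control tubes. Of 11 tested genes 2 were called by limma, both lower, and 8 had an unadjusted p under 0.05, with a median of -0.60. The mean was lower with PTH for 9 of the 11 and higher for 2, the largest rise being 0.70. By its brightest probe *Ibsp* differed by -2.01 (limma adjusted p = 0.000747). *Mepe* fell by 1.02 on the log2 scale, *Fgf23* was above background on no array, and *Sost* was so on 3 control arrays and 1 PTH array. In the fibroblast list 2 of 8 tested genes were called higher and 1 lower. By the brightest probe the gene called lower there was *Ly6c1*, which endothelial and myeloid cells also make, at -0.75 (limma adjusted p = 0.0328). A dimmer probe of *Cxcl12* passed as well (-0.78, limma adjusted p = 0.0406), where its brightest did not (-0.30, adjusted p = 0.504). The fat list had 5 tested genes and the skeletal muscle list 2, with none called by limma and 3 and 1 at an unadjusted p under 0.05. Any part of these cells in the members' values was not tested.

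The genes whose pattern was most like the members were sought by Pearson correlation over the 6 arrays with the mean of the 8 centred log2 signals. The 5 most alike were *Iqce* (r = 0.989), *Ela1* (0.984), *Dgkq* (0.984), *Ktn1* (0.982) and *Recql4* (0.982). None of them was called (adjusted p = 0.667 to 0.938). With 6 arrays and 11978 genes to choose from these values are a description of these arrays, and no test was made.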

How the data were processed

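RNA from 3 control and 3 PTH preparations was read on Illumina mouse bead arrays with GenomeStudio. The authors deposited a table without normalization, holding a signal intensity and a detection p-value for each probe and array. From these intensities log2 values were computed with neqc in limma 3.58.1 (R 4.3.3): normexp by detection p-value, an offset of 16 and quantile normalization. The offset understates changes of dim probes. Probes with a detection p-value under 0.05 on at least 3 of 6 arrays were fitted with lmFit and eBayes, with p-values adjusted by Benjamini and Hochberg's method over all of them. The script was tested on simulated data. The brightest tested probe stood for a gene. Summed linear signals add 2 to the power of the log2 value, less the offset, over tested genes. The genes and lists were chosen with earlier results of these data known. Genes were named as members, as called, as the brightest 2 of an endothelial list or 3 of a marker list, or as RAMP2 and endoglin partners. *Cdh5*, *Jam2*, *Kdr*, *Flt1*, *Erg*, *Id1*, *Klf2*, *Sost* and genes above background on no array were chosen after their values were seen. Alternatives were other normalizations, filters and thresholds, the replicate number as a block, a per-probe test without shared variances, the mean of a gene's probes, and each array left out.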

Additional observations from a re-analysis of the deposited data

How the results depend on the processing

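No member probe was called under any alternative run, leaving out each array included, and *Vwf* kept its direction in all of them. Its log2 difference ranged from -0.544 to -0.285, with an adjusted p of 0.0914 to 0.979, the last with median scaling. Median scaling reversed the dim *Pecam1* probe (0.004) and *Cd34* (0.042), neither of which was called. With 1 array left out, 4 probes changed sign in some runs: the brighter *Pecam1* probe ranged from -0.056 to 0.183, the dim one from -0.499 to 0.166, *Emcn* from -0.006 to 0.14 and *Cd34* from -0.253 to 0.131. Requiring a detection p-value under 0.01 on all 6 arrays left 7 of the 9 probes, without *Cd34* and the dim *Pecam1* probe.

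Over the 6 endothelial lists and the RAMP2, endoglin and claudin lists together, 2 of 66 tested genes were called (*Ramp1* and *Stab1*). This became 0 with median scaling, 0 with the replicate block and 1 (*Stab1*) in the test without shared variances after Benjamini-Hochberg adjustment. With 1 array left out it was 0 to 1. An offset of 50, the stricter detection filter and the test without shared variances at an unadjusted p each gave 3, with *Klf2* added, and the others gave 2. Over all genes 207 calls became 104 with median scaling, 44 with the replicate block, 506 in the test without shared variances at an unadjusted p, 68 in it after adjustment, and 50 to 95 with 1 array left out. The other settings gave 139 to 279. The cause was not tested, except that runs with an array left out have fewer arrays.

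Deviations from the group means were correlated between control and PTH arrays. For numbers 1 and 2 the same-numbered correlations were 0.067 and 0.064, and those across these numbers were 0.07 and 0.073. For number 3 the correlation was 0.273, against -0.142 to -0.134 with the other numbers. Arrays numbered 3 were thus alike in part. The deviations of 3 arrays from their mean cancel out, so array 3 also shapes the correlations of numbers 1 and 2. Those correlations therefore cannot show whether numbers 1 and 2 were paired. Whether the arrays were paired was not tested. With the replicate block the adjusted p was 0.232 for *Vwf*, the lowest of the members, 0.0663 for *Stab1* and 0.0743 for *Ramp1*. Signal over background limits *Cd34* and the dim *Pecam1* probe most, and the receptors *Calcrl* and *Acvrl1* could not be followed at all.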
